A study of Mus musculus with 10 samples.

Results

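The neurotransmitter receptor genes described here code for the subunits of the receptors for glutamate, GABA, glycine and acetylcholine at nicotinic synapses. They were taken by symbol from the protein-coding genes of mm10: symbols starting with Gria, Grik, Grin, Grid, Grm, Gabra, Gabrb, Gabrg, Gabrr, Glra or Chrn, without Grm6, Grina, the Gabarap genes and a gene for an interacting protein, on chromosomes 1 to 19. This gave 56 members of 20665 genes, in 9 families: 3 AMPA, 5 kainate, 7 NMDA, 2 delta, 7 metabotropic glutamate, 11 GABA-A, 3 GABA rho, 2 glycine and 16 nicotinic acetylcholine receptor genes. All 56 had at least 1 peak in 1 list within the gene body and 5 kb either side, the window used throughout. They are long genes, with a median of 91.1 kb against 17.5 kb over all genes.

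The study set mouse retina (strain C57BL/6) lacking Casz1, a zinc finger transcription factor of retinal progenitors, in a conditional knockout (cKO) against control retina labelled wild type. For ATAC-seq, a map of the open chromatin that the Tn5 transposase can reach, 2 cKO libraries came from postnatal day 2 explants given a plasmid with GFP and Cre, and 2 control libraries from explants given GFP alone. Per library, 50000 viable GFP-positive cells were sorted after 2 days ex vivo, in experiments on separate days that the labels do not tie to replicate numbers. ChIP-seq was done for H3K27ac, found on active enhancers and promoters, and for H3K27me3, which Polycomb complexes write on silent genes. It used dissected retina at postnatal day 0, with 1 cKO and 1 control library per mark. The cKO tissue for ChIP was peripheral retina chosen by its fluorescence, so genotype and retinal position cannot be told apart there. The labels give neither the Cre driver of that tissue nor the Casz1 allele, and do not say whether libraries came from separate animals or pools.

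Glutamate carries signals from photoreceptors to bipolar cells and on to ganglion cells, through ionotropic receptors (AMPA, kainate and NMDA) and metabotropic receptors coupled to G proteins. GABA and glycine, released by horizontal and amacrine cells, open chloride channels, and acetylcholine from starburst amacrine cells drives the spontaneous waves of newborn retina through nicotinic receptors. At birth most of these synapses have yet to form, since bipolar cells and many rods are still to be born. Genes that progenitors will use only after differentiation often carry H3K27me3, and a start with both H3K27me3 and H3K27ac in bulk tissue can come from 1 cell with both or from different cells with each.

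The lists give the position of each called peak and nothing of its height, so coverage, the bp under peaks, was compared and read depth is unknown. On chromosomes 1 to 19, the H3K27ac lists covered 50.7 Mb in cKO and 54.4 Mb in control, and the H3K27me3 lists 70.2 Mb in cKO and 71.6 Mb in control. The ATAC lists differed far more, with 51.6 and 19.6 Mb in cKO replicates 1 and 2 and 11.6 and 59.8 Mb in control replicates 1 and 2. Of 19 retinal marker genes (such as Rax and Otx2), 17 had H3K27ac at the start in both genotypes, and those at 0 were Pou4f2 and Rcvrn. Fewer starts of the other lists had it: 1 of 7 skeletal muscle genes in both genotypes, 0 of 4 microglial genes in cKO and 1 in control, 2 of 5 blood vessel genes in both, 1 of 4 forebrain genes in both, and 0 of 3 liver genes in both. The summed H3K27ac of the vessel list was 23677 bp in cKO and 29816 bp in control, and of the microglial list 888 bp in cKO and 821 bp in control. The part of these cells in the receptor values was not tested.

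The promoter windows below show the range of sequence over which the marks were laid, from a start dense in CG dinucleotides to one nearly free of them. Each runs 5′ to 3′ from 250 bp before to 50 bp after the gene's start, is taken from RefSeq (GRCm38.p6, the assembly called mm10), and has CG in capitals. The first is Grik3 (chr4:125490446-125490745, plus strand), the richest member window with 50 CG, whose start carried both marks. The next is Grin1 (chr2:25319138-25319437, minus strand), with 33 CG and both marks. Gria4 (chr9:4796185-4796484, minus strand) has 17 CG and carried H3K27ac alone. Chrng (chr1:87205561-87205860, plus strand) has 2 CG and carried H3K27me3 alone. Gabra6 (chr11:42321023-42321322, minus strand) has 2 CG and carried neither mark.
Grik3: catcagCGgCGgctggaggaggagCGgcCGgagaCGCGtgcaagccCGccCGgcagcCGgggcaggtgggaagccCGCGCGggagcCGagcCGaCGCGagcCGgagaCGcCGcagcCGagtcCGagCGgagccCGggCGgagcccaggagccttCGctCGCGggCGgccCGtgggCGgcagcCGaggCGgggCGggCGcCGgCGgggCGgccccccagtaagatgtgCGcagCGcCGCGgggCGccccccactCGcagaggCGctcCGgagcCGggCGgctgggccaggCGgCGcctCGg
Grin1: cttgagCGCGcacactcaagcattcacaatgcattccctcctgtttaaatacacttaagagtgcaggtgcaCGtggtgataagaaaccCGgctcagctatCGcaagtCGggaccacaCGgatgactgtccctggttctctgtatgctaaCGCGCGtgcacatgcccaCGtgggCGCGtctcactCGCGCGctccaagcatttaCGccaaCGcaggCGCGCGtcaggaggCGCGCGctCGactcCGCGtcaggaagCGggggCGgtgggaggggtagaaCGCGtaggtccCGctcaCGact
Gria4: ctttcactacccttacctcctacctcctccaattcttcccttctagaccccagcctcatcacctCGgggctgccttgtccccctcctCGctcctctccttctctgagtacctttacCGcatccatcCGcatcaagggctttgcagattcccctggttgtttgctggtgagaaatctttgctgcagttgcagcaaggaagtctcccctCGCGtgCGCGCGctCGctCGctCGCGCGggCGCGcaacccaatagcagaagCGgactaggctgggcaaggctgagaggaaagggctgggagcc
Chrng: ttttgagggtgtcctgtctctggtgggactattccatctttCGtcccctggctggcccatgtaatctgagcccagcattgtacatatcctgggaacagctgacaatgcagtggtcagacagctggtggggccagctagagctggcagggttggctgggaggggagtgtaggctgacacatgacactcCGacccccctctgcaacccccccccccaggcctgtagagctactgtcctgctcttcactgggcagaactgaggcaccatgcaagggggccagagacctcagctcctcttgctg
Gabra6: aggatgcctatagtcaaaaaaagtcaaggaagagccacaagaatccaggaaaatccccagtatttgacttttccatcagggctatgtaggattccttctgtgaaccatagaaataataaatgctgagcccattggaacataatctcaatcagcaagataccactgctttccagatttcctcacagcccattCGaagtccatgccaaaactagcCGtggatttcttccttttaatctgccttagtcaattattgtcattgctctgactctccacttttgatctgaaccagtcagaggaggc

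Receptor gene starts carried H3K27me3 far more often than gene starts in general. A peak within 1 kb of the start counted; 38 members have a start in the RefSeq promoter table, and for the other 18 both annotated ends were used. H3K27me3 lay at 35 of 56 starts in cKO (62.5%) and at 37 in control (66.1%), against 26.6% and 26.9% of all gene starts. This was not particular to receptor genes. Of the marker lists, H3K27me3 lay at 14 of 19 retinal starts in cKO and 15 in control, and at 4 of 4 forebrain starts in both. It lay at 4 of 7 muscle starts in both, at 1 of 5 vessel starts in cKO and 2 in control, and at no microglial or liver start. H3K27ac lay at 38 starts in cKO (67.9%) and 37 in control (66.1%), near the 62.9% and 63% of all genes. The most frequent state was both marks at once, at 27 starts in cKO (48.2%) and 28 in control (50%), against 17.3% and 17.5% of all genes. Where peaks had to lie over the start itself, both marks were at 16 of 56 starts in control (28.6%, against 6.99% of all genes). H3K27ac alone marked 11 starts in cKO and 9 in control (16.1%, against 45.5% of all genes in control). H3K27me3 alone marked 8 in cKO and 9 in control (16.1%, against 9.36%), and 10 in each genotype carried neither (17.9%, against 27.6% in control). Among the 38 members with a tabulated start, 19 carried both marks in each genotype.

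Where both marks lay at a start, they usually lay on the same bases. Shared bases were found at 26 of 27 such starts in cKO, with a median of 503 bp over those starts, and at 27 of 28 in control, with a median of 691 bp. Over all genes with both marks, 80% shared bases in cKO and 81.1% in control, with medians of 365 bp and 383 bp. Around the 38 tabulated starts, the mean share of bases under H3K27me3 peaked on the transcribed side, at 55.2% in cKO (750 to 1000 bp) and 53.7% in control (1000 to 1250 bp). The same bins held 16.3% and 16.1% over all 16457 genes with a tabulated start. The H3K27ac profile, by contrast, peaked near the level of all genes, in the first 250 bp, at 61% in cKO and 60.1% in control, against 57% and 57.6%. Upstream it was lower than in all genes, at 28.1% in cKO and 36.0% in control between 500 and 250 bp before the start, against 41.3% and 42.7%. The highest bin more than 1 kb before the start, from 5250 to 5000 bp, held 15.3% in cKO and 13.2% in control, against 2.75% and 3.06%. Other bins were lower than in all genes, as between 2000 and 1750 bp, with 0% in both genotypes against 3.47% and 3.85%. With 38 genes, a few peaks set the value of a bin, and peaks of neighbours count too. A peak over Fgf11, in the window of Chrnb1, lay in the highest bin in both genotypes.

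**Figure D1:**
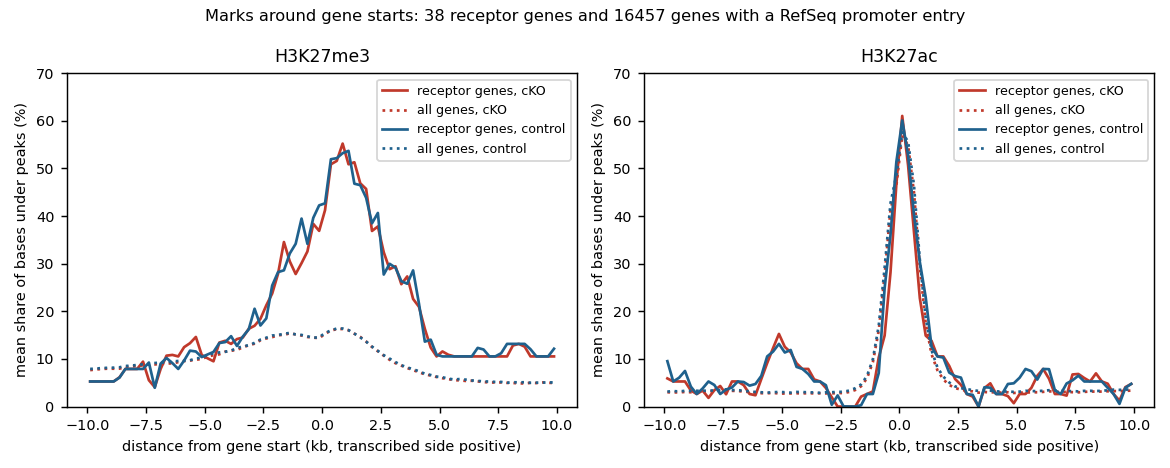
Mean share of bases under H3K27me3 peaks (left) and H3K27ac peaks (right) in 250 bp bins up to 10 kb either side of the start, for 38 receptor genes (solid) and 16457 genes (dotted), with cKO in red and control in blue. Receptor genes reach 55.2% under H3K27me3 in cKO and 53.7% in control, where all genes reach about 16%, while the H3K27ac lines of receptor genes and all genes nearly coincide at the start.

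The families differed in how the marks were laid. All 24 glutamate receptor genes had a mark at the start, with H3K27me3 at 20 in cKO and 21 in control. Of the 32 GABA, glycine and nicotinic genes, 15 had H3K27me3 at the start in cKO and 16 in control, and all 10 starts with neither mark, in both genotypes, belonged to these families.

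**Figure D2:**
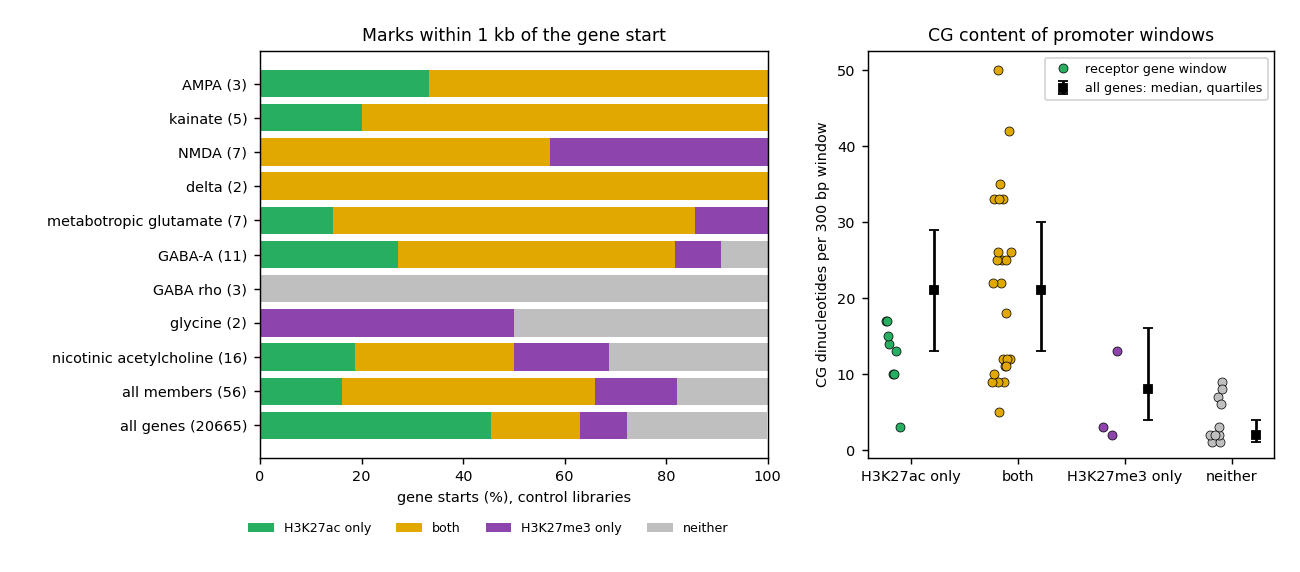
Left: share of gene starts (%) in control with H3K27ac only, both marks, H3K27me3 only or neither, by family (number of genes in brackets), for all 56 members and for all 20665 genes. Right: CG dinucleotides per 300 bp promoter window of members in each state (circles, 45 windows), beside the median and quartiles of all genes (squares with bars). Every NMDA start carries H3K27me3, every rho start carries neither mark, and member windows with both marks reach 50 CG.

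Grin1, Grin2d and Grin2c, of the NMDA receptor genes, had the largest shares of their windows under H3K27me3 among the members. The NMDA receptor, a calcium-permeable channel that needs both glutamate and a co-agonist, is built on the obligatory GluN1 subunit coded by Grin1. H3K27me3 peaks covered 95.9% of the Grin1 window in cKO (36454 bp) and 97.4% in control (37026 bp). In control 2 peaks reached the window. Nearly all of the coverage came from 1 of 38666 bp (chr2:25287479-25326144), which ran past the window and also took in the neighbours Tmem210 and Lrrc26. In cKO the widest piece was 25045 bp (chr2:25301242-25326286). H3K27ac was confined in the Grin1 window to 1 peak over the start, 857 bp wide in cKO and 734 bp in control, wholly inside the H3K27me3 domain. Grin2d and Grin2c, which code for GluN2 subunits that bind glutamate, followed. Grin2d had 35169 bp under H3K27me3 in cKO and 33512 bp in control (71.3% and 68% of its window), and 2865 bp under H3K27ac in cKO and 2828 bp in control. Grin2c had 19327 bp under H3K27me3 in cKO and 18745 bp in control (68.7% and 66.6%), and 1940 bp under H3K27ac in cKO and 1815 bp in control. The widest H3K27ac peak of the Grin2d window lay over the neighbour Kdelr1 and that of Grin2c over Tmem104, so most acetylation counted for these genes was not theirs alone: within the gene bodies it was 709 bp in cKO and 663 bp in control for Grin2d, and 444 bp in cKO and 282 bp in control for Grin2c.

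The remaining NMDA genes had H3K27me3 at the start over smaller shares of their windows, from 2.21% for Grin2a to 27.7% for Grin3b in cKO and from 2.26% to 26.3% for the same genes in control. Grin2b, the GluN2 subunit that prevails before birth in the forebrain, carried both marks, with 13669 bp of H3K27me3 in cKO and 13292 bp in control, and 5247 bp of H3K27ac in cKO and 4098 bp in control. Grin2a, Grin3a and Grin3b had H3K27me3 without H3K27ac at the start in control. Grin2a and Grin3a had no H3K27ac anywhere in the window in either genotype, with 9686 bp of H3K27me3 in cKO and 9920 bp in control for Grin2a. Grin3a, a glycine-binding subunit, had 22310 bp of H3K27me3 in cKO and 23182 bp in control. All 7 NMDA starts thus carried H3K27me3 in both genotypes. Of NMDA genes with enough H3K27ac to be compared, 4 of 4 had more of it in cKO, as did 4993 of 13943 genes over all. The highest ratio was 1.28 for Grin2b. The 4 also had more in cKO when lists were scaled to equal totals, where only 41.4% of all genes had less. The direction of a pair of these NMDA genes depended on the window and the peaks counted. Within 5 kb of the start, Grin2b had 1335 bp in cKO and 2044 bp in control (ratio 0.653) and Grin2c 263 bp in cKO and 343 bp in control (ratio 0.767). With peaks of at least 300 bp alone, Grin2c had 1013 bp in cKO and 1608 bp in control (ratio 0.630).

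Among the AMPA receptor genes, which code for the fast excitatory channels, Gria4 had no H3K27me3 in the window in either genotype, and 7459 bp of H3K27ac in cKO against 6808 bp in control. Gria2, whose edited subunit keeps the channel closed to calcium, carried both marks over its first few kb, with 2456 bp of H3K27me3 in cKO and 2855 bp in control. Its H3K27ac was 1 peak of 3201 bp in cKO and of 3326 bp in control, sharing 2403 bp with H3K27me3 in cKO and 2285 bp in control. Gria1 had 1729 bp of H3K27me3 in cKO and 1664 bp in control, with 5158 bp of H3K27ac in cKO and 4349 bp in control. All 3 AMPA starts were therefore acetylated, and those of Gria1 and Gria2 carried H3K27me3 as well.

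Grik3, a kainate receptor subunit, had more bp of H3K27me3 in control than any other member, and was second to Grm7 in H3K27ac. Its H3K27me3 came to 32537 bp in cKO and 38646 bp in control. The widest peak lay over the start, with 21787 bp in cKO (chr4:125479524-125501310) and 21593 bp in control (chr4:125479720-125501312). The part of it in the window, 16052 bp in cKO and 16054 bp in control, made up 49.3% of this coverage in cKO and 41.5% in control. Its H3K27ac came to 13509 bp in cKO and 18495 bp in control, a ratio of 0.730. The sequence printed above for Grik3 lies inside that peak in both genotypes. Grik4 had 8547 bp of H3K27me3 in cKO and 8246 bp in control, and 8713 bp of H3K27ac in cKO and 10233 bp in control. Grik1, the kainate subunit of OFF bipolar cells, had 5482 bp of H3K27me3 in cKO and 5332 bp in control, but only 492 bp of H3K27ac in cKO and 186 bp in control. Grik2 was the reverse, with 885 bp of H3K27me3 in cKO and 1260 bp in control, and 5584 bp of H3K27ac in cKO and 6633 bp in control. Grik5 was acetylated at the start without H3K27me3, with 12032 bp of H3K27ac in cKO and 11817 bp in control. Its H3K27me3, 7485 bp in cKO and 7965 bp in control, lay at the other end of the gene.

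Delta receptor genes code for relatives of the ionotropic receptors that bind cerebellins at synapses. Grid1 carried both marks, with 10374 bp of H3K27me3 in cKO and 11178 bp in control, and 7108 bp of H3K27ac in cKO and 6263 bp in control.

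Among the metabotropic receptor genes, which code for G protein-coupled receptors, Grm2, Grm3, Grm4, Grm5 and Grm8 had both marks at the start in both genotypes. Grm7, a presynaptic receptor of group III, had H3K27ac alone there and had the most H3K27ac of any member, 16228 bp in cKO and 19098 bp in control. Its H3K27me3, 11960 bp in cKO and 9834 bp in control, lay away from the start. Grm4, also of group III, had 18207 bp of H3K27me3 in cKO and 18253 bp in control, and 4097 bp of H3K27ac in cKO and 5220 bp in control. Grm8 had 5036 bp of H3K27me3 in cKO and 5263 bp in control, with 2749 bp of H3K27ac in cKO and 3149 bp in control. Group III thus held 2 genes with both marks and Grm7 with acetylation alone at the start.

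Grm3, of group II, had 12414 bp of H3K27me3 in cKO and 11726 bp in control, with 1611 bp of H3K27ac in cKO and 2022 bp in control. Grm2, of the same group, had 5019 bp of H3K27me3 in cKO and 5371 bp in control, with 489 bp of H3K27ac in cKO and 692 bp in control. In group I, Grm5 had 5821 bp of H3K27me3 in cKO and 6016 bp in control, with 1495 bp of H3K27ac in cKO and 1713 bp in control. All 6 metabotropic genes with enough H3K27ac to be compared had less of it in cKO, as did 64% of all genes. Their ratios ran from 0.707 for Grm2 to 0.873 for Grm5 and Grm8. All 6 stayed below 1 when lists were scaled to equal totals, where 41.4% of all genes were lower. Over the gene body alone, the ratio of Grm2 was 1.02 (402 bp in cKO, 393 bp in control).

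Among the GABA-A receptor genes, the gamma genes Gabrg1 and Gabrg3 differed in their start marks from alpha and beta genes of the same chromosome. A GABA-A channel usually joins alpha, beta and gamma subunits. On chromosome 5, Gabrg1, Gabra2, Gabra4 and Gabrb1 span 1399 kb (chr5:70751047-72149572). Gabrg3 and Gabra5 lie on chromosome 7. The starts of Gabrg1 and Gabrg3 carried H3K27ac and no H3K27me3 in both genotypes, while those of Gabra2, Gabra4, Gabrb1 and Gabra5 had H3K27me3 in both. On chromosome 11, the start of Gabrb2 had H3K27me3 and that of Gabra6 did not. Gabrg3 had 2669 bp of H3K27ac in cKO and 2967 bp in control, with no H3K27me3 in the window. Gabrg1 had 491 bp of H3K27ac in cKO and 368 bp in control, with a single H3K27me3 peak of 247 bp, in cKO, away from the start.

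Gabra5 had the most H3K27me3 of the family, 16778 bp in cKO and 16405 bp in control. Its start had H3K27me3 alone, and the H3K27ac in its window, 3695 bp in cKO and 3385 bp in control, lay elsewhere, with 2410 bp in cKO and 2185 bp in control inside the gene. Gabra4 and Gabrb1 shared 1 H3K27me3 peak over their adjoining starts, 3420 bp in cKO and 3784 bp in control. Gabra4 had 3821 bp of H3K27me3 in its window in cKO and 4225 bp in control. Gabrb1 had 5737 bp of H3K27me3 in its window in cKO and 6690 bp in control, with 1039 bp of H3K27ac in cKO and 824 bp in control. The starts of Gabra2 and Gabrb2 carried both marks over shorter stretches. Gabra2 had 1933 bp of H3K27me3 in cKO and 2664 bp in control, with 1315 bp of H3K27ac in cKO and 1318 bp in control. Gabrb2 had 916 bp of H3K27me3 in cKO and 1249 bp in control, with 1617 bp of H3K27ac in cKO and 1629 bp in control. Gabra6, a subunit of cerebellar granule cells, had no histone peak in its window and no ATAC peak in 3 lists, with 360 bp in control replicate 2.

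The rho genes code for GABA receptors found at bipolar cell terminals. None of the 3 starts carried either mark in either genotype. Gabrr3 had no histone peak in its window at all, but its start was open in all 4 ATAC lists, with 2056 and 576 bp under ATAC peaks in cKO replicates 1 and 2 and 231 and 2203 bp in control replicates 1 and 2. Of the glycine receptor genes, Glra1 had H3K27me3 at the start, with 16149 bp in cKO and 15114 bp in control, and 1693 bp of H3K27ac in cKO and 1657 bp in control. The acetylation of Glra1 lay inside the gene, away from the start. Glra3 had no H3K27me3 in either genotype.

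Nicotinic receptor genes held all 4 start states, as did the GABA-A genes. Of the 11 subunits of neuronal receptors, H3K27ac was at 7 starts in both genotypes and H3K27me3 at 5 in cKO and 6 in control. Of the 5 muscle-type subunits, Chrnb1 alone had H3K27ac at the start, and Chrnd and Chrng had H3K27me3, in both genotypes. Chrng, the subunit of fetal muscle, had 7333 bp of H3K27me3 in cKO and 7178 bp in control (45.8% and 44.8% of its window). Chrnd, its neighbour 21.2 kb from end to end of the pair (chr1:87190597-87211835), had 5751 bp in cKO and 7007 bp in control. Most of it lay outside the Chrnd gene body, which held 444 bp in cKO and 772 bp in control, and the widest peak lay over Prss56. Chrnd has no tabulated start, so its start mark may lie at either annotated end. The H3K27ac counted for this pair, 1951 bp in cKO and 1788 bp in control for Chrng, was a peak over Eif4e2, and the widest one of Chrnd lay over Prss56. The muscle marker list had H3K27ac at 1 of 7 starts and H3K27me3 at 4 of 7 in both genotypes, and the part of muscle cells in these values was not tested.

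Chrna3 and Chrnb2, whose products join in the receptors of retinal waves, both carried both marks. Chrna3 had 2868 bp of H3K27me3 in cKO and 3523 bp in control, with 2108 bp of H3K27ac in cKO and 1959 bp in control. It lies with Chrna5 and Chrnb4 in a 68.1 kb cluster (chr9:54980827-55048953). Chrna5 likewise had both marks at the start. Chrna5 had the most H3K27me3 of the nicotinic genes, 8897 bp in cKO and 9307 bp in control, with 646 bp of H3K27ac in cKO and 708 bp in control. Chrnb4 had H3K27ac alone at its start, with 4427 bp in its window in cKO and 4583 bp in control. The H3K27me3 in the Chrnb4 window was the peak over Chrna3. Chrna4 had the highest share of any member window under H3K27ac, 18.4% in cKO (5740 bp) and 21.9% in control (6852 bp), and 3439 bp of H3K27me3 in cKO against 3881 bp in control. Chrna7, which forms channels on its own, had 3167 bp of H3K27me3 in cKO and 3048 bp in control, with 1291 bp of H3K27ac in cKO and 1474 bp in control. Chrna9 and Chrna10, the hair cell subunits, had no H3K27me3 in the window and no mark at the start. Chrna1 and Chrne, of muscle, also had neither mark at the start.

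**Figure D3:**
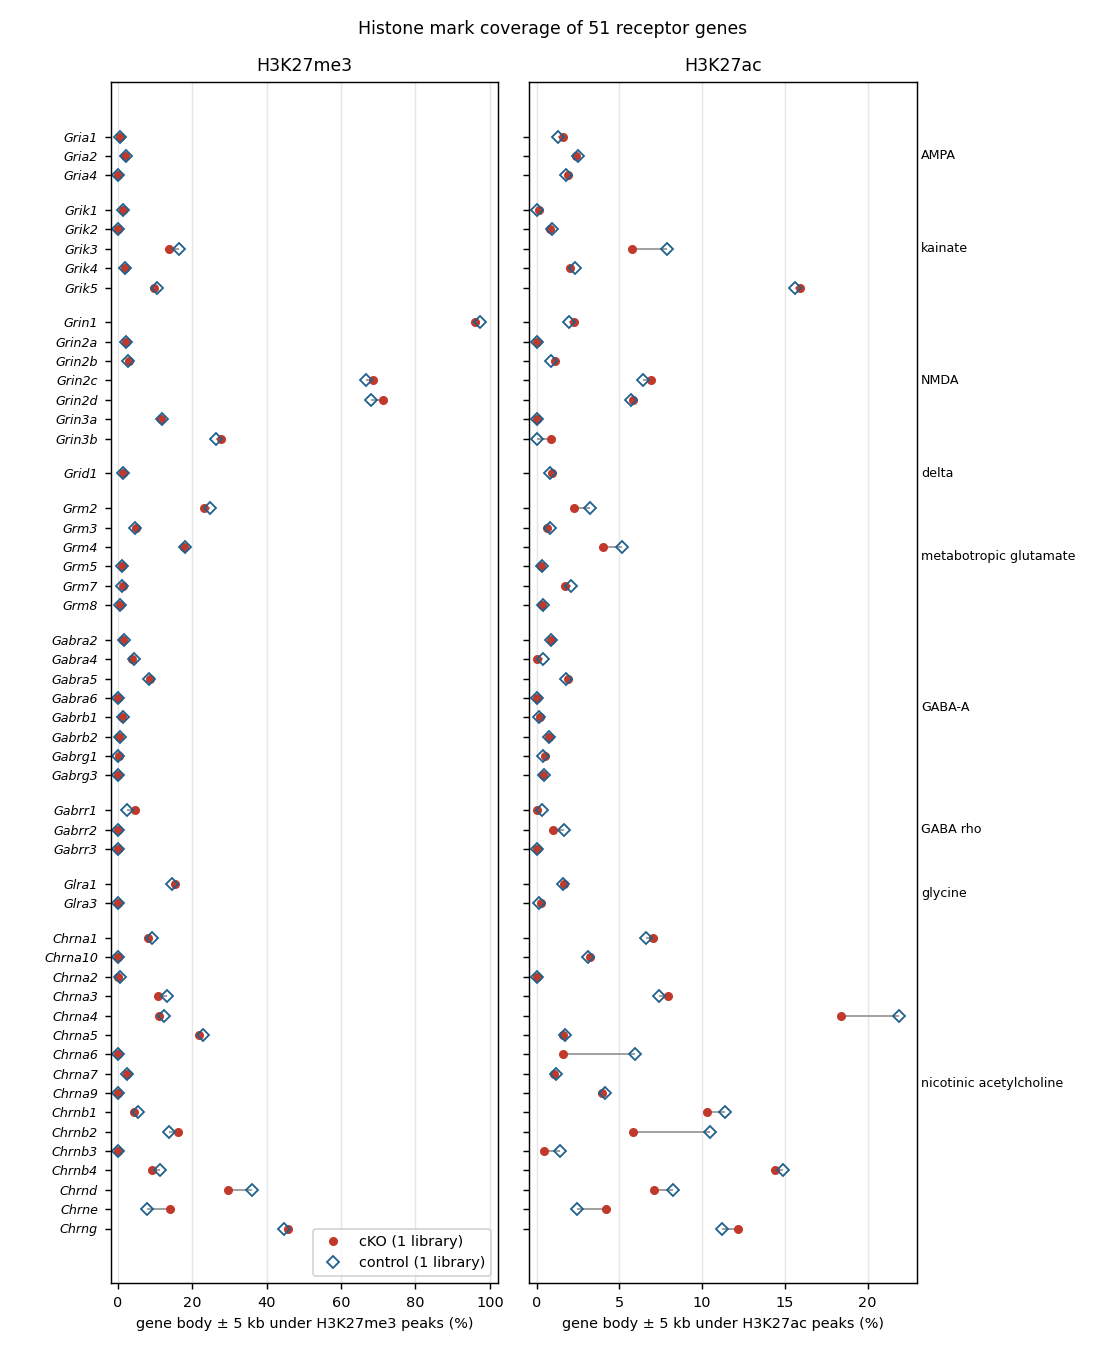
Share of the window of 51 receptor genes (gene body and 5 kb either side, %) under H3K27me3 peaks (left) and H3K27ac peaks (right), with 1 cKO library (filled circles) and 1 control library (open diamonds) per mark and genes grouped by family. Grin1 reaches 95.9% in cKO and 97.4% in control under H3K27me3, and in most genes the symbols of both genotypes overlap.

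H3K27ac in cKO and control was compared as the ratio of covered bp. Genes with a mean of at least 500 bp in the 2 libraries were used, calling a ratio of 1.5 or more either way. With 1 library per genotype there is no replicate check and no test. The cKO tissue was peripheral retina, so a difference in either mark cannot be assigned to Casz1 loss rather than retinal position. Of 41 members compared, 15 had more H3K27ac in cKO and 26 less (63.4% lower, against 64% of all genes), with a median ratio of 0.912 against 0.956. When lists were scaled to equal totals, a shift of 0.10 on the log2 scale, 51.2% of members and 41.4% of all genes were lower in cKO. No member was at least 1.5 times higher in cKO, where 1.39% of all genes compared were. Lower by that factor were 3 members, where 3.62% of all genes were: Chrna6, Chrnb2 and Gabrr2.

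Chrna6, a subunit of ganglion cell receptors in mouse retina, had 328 bp of H3K27ac in cKO and 1235 bp in control, a log2 ratio of -1.91. In neither genotype did a peak lie in the gene itself. A first peak lay 3983 bp from the nearer annotated end in cKO (179 bp wide) and 3830 bp in control (582 bp wide), inside the neighbouring Chrnb3, which codes for another subunit of these receptors. A second lay beyond the opposite end, 149 bp wide in cKO and 653 bp in control. Both peaks were therefore present in both genotypes, and narrower in cKO. Chrnb3, with the first of these peaks alone (179 bp in cKO, 582 bp in control), was under the minimum for comparison.

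Chrnb2 had 1237 bp of H3K27ac in cKO and 2228 bp in control, a log2 ratio of -0.85. Within 5 kb of its start the log2 ratio was -0.47, under the 1.5-fold threshold. The peak over the start was present in both, 1237 bp wide in cKO and 1461 bp in control, and peaks of 509 and 258 bp inside the gene were listed in control alone. Its H3K27me3 was 3419 bp in cKO and 2920 bp in control. Gabrr2 had 1 peak in each genotype, inside the gene, of 470 bp in cKO and 802 bp in control, a log2 ratio of -0.77. In all 3 members the lower coverage in cKO was made of narrower or missing peaks. Chrnb2 kept its peak at the start in cKO, and Chrna6 and Gabrr2 had none there in either genotype.

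H3K27me3 showed no common direction. Of 43 members compared, 18 had more in cKO and 25 less, with a median ratio of 0.968 against 0.989 over all genes. At least 1.5 times higher in cKO were Chrne and Gabrr1, 2 members where 5.3% of all genes were, and 1 member was lower by that factor, where 6.65% of all genes were. Chrne, the adult muscle subunit, had 2016 bp in cKO and 1114 bp in control, in 2 peaks of its body in each genotype, and overlaps the gene 4930544D05Rik. Gabrr1 had 1858 bp in cKO, in 5 pieces, and 1055 bp in control, in 4 pieces, all inside the gene and over 12 kb from its start.

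**Figure D4:**
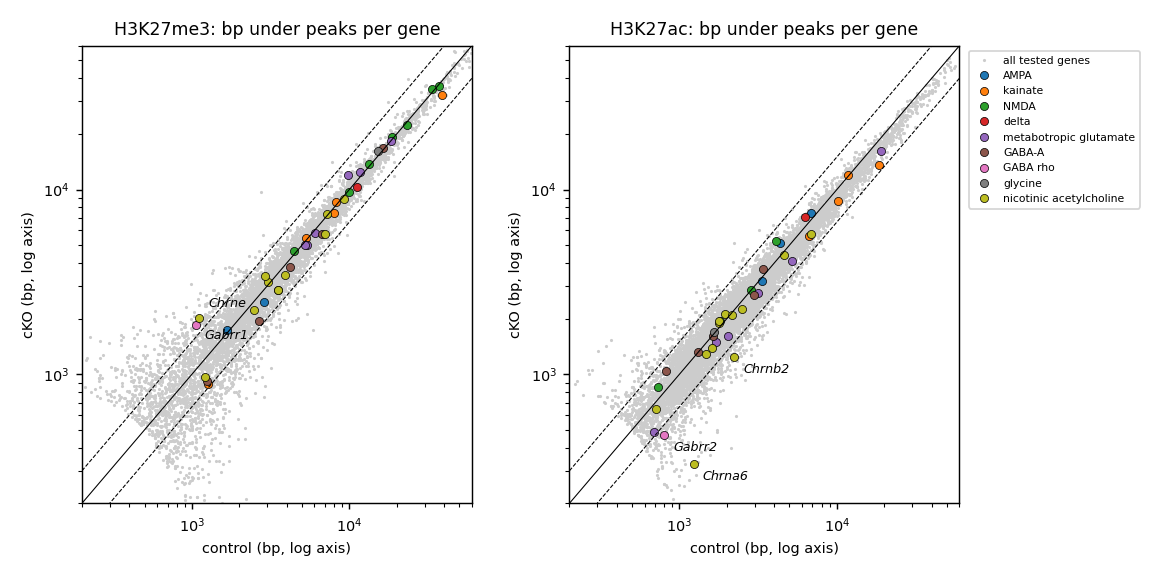
Bp under H3K27me3 peaks (left) and H3K27ac peaks (right) per gene in cKO (vertical) against control (horizontal), on log axes, for all compared genes with peaks in both libraries (grey) and the compared receptor genes among 51 drawn, coloured by family. The solid line marks equal coverage and the dashed lines a ratio of 1.5 either way. Chrna6, Chrnb2 and Gabrr2 lie below the band for H3K27ac, Chrne and Gabrr1 above it for H3K27me3.

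At gene starts, 5 of 56 members changed state between the genotypes (8.93%, against 6.19% of all genes). An H3K27ac peak stood at the start in cKO alone for Grin3b and Glra3 (1.11% of all genes) and in control alone for Gabra4 (1.24%). Grin3b had a peak of 151 bp in cKO and none in control, inside an H3K27me3 peak of 4648 bp in cKO and 4416 bp in control. Glra3 had a peak of 203 bp in cKO and none in control at the start. Gabra4 had none in cKO and a peak of 357 bp in control. An H3K27me3 peak stood at the start in control alone for 2 members (2.08%), and in cKO alone for no member (1.83%). Of these, Chrna2, a neuronal subunit, had no H3K27me3 in cKO and a peak of 150 bp in control, near 1 of its ends and its single histone peak. The start peaks that these 4 genes had in 1 genotype alone were 150 to 357 bp wide. When only peaks of at least 300 bp were counted, Gabra4 alone of the 4 kept such a difference. Chrnb3, Gabrg1 and Grin2c then had an H3K27ac start peak in 1 genotype alone.

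Open chromatin of the receptor genes followed the length of the ATAC lists. The covered bp in cKO replicate 1 and control replicate 2 exceeded those in cKO replicate 2 and control replicate 1 for 55 of 56 members. Summed over members, ATAC peaks covered 205 and 63.8 kb in cKO replicates 1 and 2 and 29.9 and 236 kb in control replicates 1 and 2. Grik3, with the most covered bp of any member in each list, had 18813 and 6772 bp in cKO replicates 1 and 2 and 2229 and 22636 bp in control replicates 1 and 2. By share of the window Chrnb4 lay above it, with 13.6% in cKO replicate 1 and 14.9% in control replicate 2, against 8.04% and 9.68% for Grik3. Grin1 had 2664 and 1173 bp in cKO and 149 and 2964 bp in control, in the same replicate order. For no member did both cKO libraries lie above both control libraries (0.0719% of all genes) or both below (0.0196%).

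After quantile normalization of log2(bp + 200), limma called 0 of 49 members and 0 of 15294 genes (0%) at a Benjamini-Hochberg adjusted p of 0.05, and the lowest adjusted p over all genes was 1. At an unadjusted p under 0.05, limma gave 0 members and 10 genes (0.0654%). The log2 differences of the members named here, cKO over control, ran from -0.44 for Gabra2 to 0.64 for Grin1, with a median SE of 0.39 over all members compared, so differences of this size could not be resolved. Gabra2 had 1836 and 546 bp in cKO replicates 1 and 2 and 798 and 2002 bp in control replicates 1 and 2. In Gabra2 as in Grin1 the groups overlapped, and with 2 libraries against 2 the smallest two-sided exact permutation p for a single gene is 0.333.

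**Figure D5:**
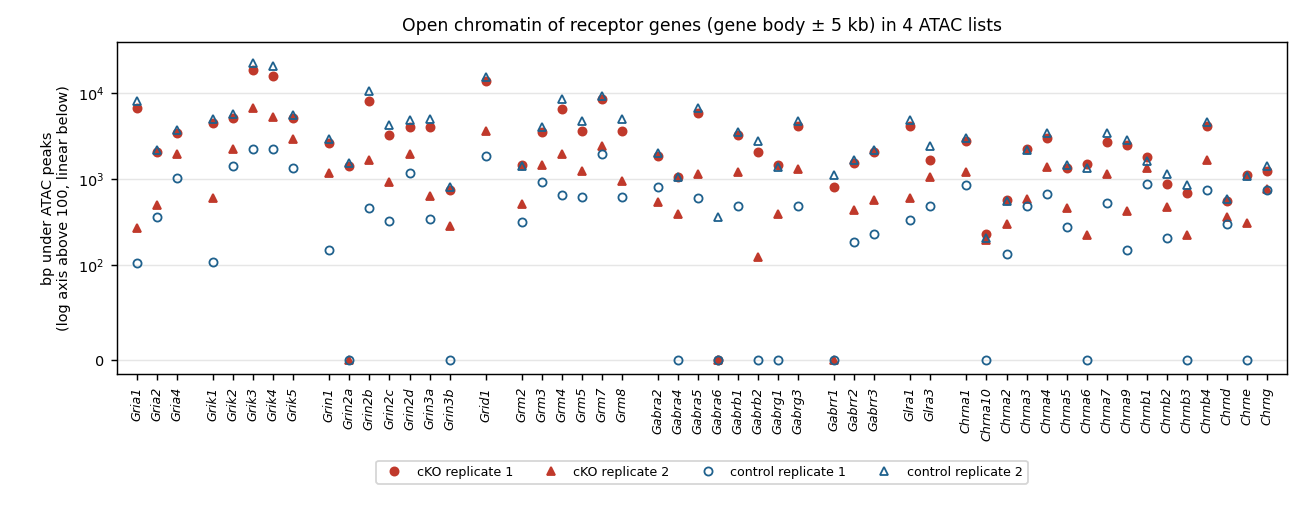
Bp under ATAC peaks in the windows of 51 receptor genes (log axis above 100 bp, linear below) in cKO replicates 1 and 2 (red, filled) and control replicates 1 and 2 (blue, open). Over all members, in 55 of 56 genes cKO replicate 1 and control replicate 2 lie above cKO replicate 2 and control replicate 1. In 52 genes control replicate 1 is the lowest without a tie.

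The start was open in all 4 ATAC lists for 26 members (46.4%, against 57.8% of all genes) and in none for 11 (19.6%, against 29.6%). Those 11 included Gabrr1 and Gabrr2 and, of the nicotinic genes, Chrna1, Chrna2, Chrna6, Chrna9, Chrna10, Chrnd and Chrne. The other two were Gabra6 and Grin2a. Of 465 merged ATAC regions in member windows, 106 were in all 4 lists (22.8%, against 28.2% of all regions) and 139 in the long lists alone (29.9%, against 28%). No region was called in both cKO lists alone (0.273% of all regions) and 1 in both control lists alone (0.125%). This region, of 285 bp, lay inside Gria4 (chr9:4454028-4454312), 342 kb from its start. It was absent from both cKO lists, and the peaks were 128 bp wide in control replicate 1 and 204 bp in control replicate 2. H3K27ac covered all 285 bp of it in cKO and 0 bp in control, in unsorted tissue of postnatal day 0.

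The CG content of the promoter windows ran with the marks, as a description of 45 member windows of 38 genes. Windows at starts with both marks held a median of 22 CG per 300 bp, against 21 over all genes in that state. Windows with H3K27ac alone held a median of 13.5, against 21 over all genes. With H3K27me3 alone the median was 3 over 3 windows, against 8, and with neither mark 2.5, against 2. The sequences above span this range, from Grik3 with 50 to Gabra6 with 2. Chrna10 and Chrne, with neither mark, held 1 each.

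A set of 4 motifs was searched on both strands. TTCAGCACC and GGACAG are the left and right parts of the element bound by REST, which represses neuronal genes outside neurons, TATAAA is the TATA box and TAATCC the core bound by the photoreceptor factors Otx2 and Crx. TTCAGCACC was in 1 of 45 member windows (2.22%, against 0.413% of all 20085 windows), that of Grm2, where GGACAG stands 7 bases after it on the same strand. The stretch starts with the motif 242 bases before the start, with both motifs in capitals (GRCm38.p6, minus strand of chromosome 9).
Grm2: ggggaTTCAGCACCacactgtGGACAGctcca
GGACAG was in 16 windows, that of Grm2 among them (35.6%, against 22.6%). TATAAA was in 3 (6.67%, against 12.7%), those of Chrnb1, Gabrb2 and Grin3b. TAATCC was in 3 (6.67%, against 6.42%), those of Chrne, Gabra2 and Gabrr2.

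The genes that act with these receptors also carried H3K27me3 at most starts. The 55 listed partner genes were auxiliary subunits and anchors, other subunits, and enzymes and transporters of the transmitters. In control, H3K27me3 was at 39 of their starts (70.9%, against 26.9% of all genes). H3K27ac was at 44 (80%, against 63%). Of 48 with enough H3K27ac to compare, 3 were at least 1.5 times higher in cKO. These were Cacng5, an AMPA receptor auxiliary subunit (1982 bp in cKO, 980 bp in control), Slc17a6, the vesicular glutamate transporter of ganglion cells (1939 bp in cKO, 1153 bp in control), and Chat, the enzyme that makes acetylcholine (888 bp in cKO, 217 bp in control). Lower in cKO were Cnih3, another AMPA auxiliary subunit (913 bp in cKO, 1434 bp in control), and Grip2, an AMPA receptor anchor (890 bp in cKO, 1340 bp in control). Of 42 compared for H3K27me3, Cacng4, an AMPA receptor auxiliary subunit, was higher (3134 bp in cKO, 1854 bp in control), and 1 gene was lower. Over all genes compared, 1.39% were higher and 3.62% lower by that factor for H3K27ac, and 5.3% higher and 6.65% lower for H3K27me3.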

How the data were processed

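Values came from 8 of 10 samples: 4 ATAC-seq and 4 histone ChIP-seq libraries of mouse retina. The 2 inputs were not analysed here. The deposited files list the position of each called peak, and the score the authors deposited is 0 in every line, so no height, fold or p of a peak was used. Peak names show that each list comes from 1 library. Per the submitters' processing notes, Bowtie2, MACS2, deepTools and mm10 were used, with no version stated. Of thresholds, duplicate removal, Tn5 shift and use of input, nothing is stated there. Deeper sequencing can lengthen a list, and narrow calling can split broad H3K27me3 domains.

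Gene positions and promoter sequences came from RefSeq tables of GRCm38.p6. Bp under peaks were summed per gene body and 5 kb either side. Histone ratios were computed for genes with a mean of at least 500 bp and called at 1.5-fold. ATAC values, log2(bp + 200) after quantile normalization, were fitted with limma 3.58.1 in R 4.3.3 over all genes, with Benjamini-Hochberg adjustment at 0.05. The procedure was first tested on simulated data. The simulated libraries had like coverage and independent spread, unlike these lists, so that test does not show how the procedure does on them. P-values measure the spread between these libraries, which may be technical. ATAC peaks overlapping by 1 bp were merged into regions. Other tables were made with Python 3.11.15.

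Groups and replicate numbers came from the titles. The members, partner genes and marker lists were chosen with earlier results of these data known. Named were all members by family, with values for those past the fold, with a peak in 1 genotype only or with both marks at the start, and for the 2 of each family with the most coverage. Of the partner genes, those past the fold were named. Some genes that these rules took are counted but not reported here. Chosen after their values were seen were Grin2a, Grin3a, Gabrr3 and the other members named as exceptions. Alternatives were other windows, folds, minimums, scalings, peak filters and distances, each ATAC library left out, and blocks by replicate number.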

Additional observations from a re-analysis of the deposited data

How the results depend on the processing

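Depth is unknown, so small peaks limit most genotype calls. Of 3 members called for H3K27ac, against 5.01% of all genes, the number became 10 at the lower fold tried (17.6% of all genes), 1 at a fold of 2 (1.23%), 8 with a minimum of 200 bp (7.46%), 1 with a minimum of 1000 bp (3.19%) and 9 with peaks of at least 300 bp (7.14%). Of 3 for H3K27me3, against 12% of all genes, it became 5 over gene bodies alone (10.1%), 6 at the lower fold (24.1%), 1 at a fold of 2 (5%) and 8 with peaks of at least 300 bp (13.1%). Starts with both marks in control numbered 28, and 16 when peaks had to lie over the start itself. Starts with H3K27me3 numbered 37, and 22 of the 38 tabulated starts (57.9%, against 25.1% of all such genes). Starts with a histone peak in 1 genotype numbered 5, 8 within 500 bp and 3 among tabulated starts. Over all genes, averaged over both marks, the shares of such starts were 3.13%, 2.69% and 2.94% in that order. The cause of these shifts was not tested beyond the narrower sets of genes or peaks that each setting keeps.

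For ATAC, limma called 0 members under the replicate block as labelled. Libraries with the same number deviated oppositely (correlation -0.808), so a replicate block with crossed numbers was added after seeing the data, and it called 1 member, of 19 genes in all. Leaving out each ATAC library in turn gave 0 members called, with 1 to 6 at an unadjusted p under 0.05; the lone library left in a group was assumed to vary like the other group. ATAC regions of 1 genotype numbered 1, and from 9 to 105 when a library was left out. Without cKO replicate 1 there were 9 (2.04% of member regions), against 1.37% of all regions in cKO alone and 1.14% in control alone. Without cKO replicate 2 there were 29 (6.29%, against 5.96% and 0.334%). Without control replicate 1 there were 105 (22.6%, against 0.31% and 19.4%), and without control replicate 2, 77 (21.2%, against 18.6% and 0.448%). With peaks of at least 300 bp in every list there were 0 (against 0.0493% and 0.00361%). Of 89 alternative values, 44 counts of members stayed within 1.5 times the reported count and 19 moved further. A count of 0 under both settings, as for most ATAC calls, was scored as staying. A count that stayed can also hold other genes. Within 5 kb of the start, the 3 members called for H3K27ac were Chrna6, Gabrb1 and Grin2b, without Chrnb2 and Gabrr2. Of the log2 ratios of Chrna6, Chrnb2, Gabrr2, Chrne and Gabrr1, 25 kept their direction and stayed within 1.5-fold of the reported ratio, 1 moved (Gabrr1 to 2.09 with peaks of at least 300 bp) and 0 reversed. Chrna6 had no cKO peak of at least 300 bp, so no ratio is given there. Over all members compared under both settings, the direction turned for up to 6 of 41 for H3K27ac and up to 8 of 43 for H3K27me3, both with peaks of at least 300 bp, and 2 of each then passed the 1.5-fold threshold the other way. Within 5 kb of the start, 5 of 34 turned for H3K27ac, and 2 of them, Gabrb1 and Grin2b, were at least 1.5 times lower in cKO.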

Other observations

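The receptor genes of chromosome X lie outside the members. In H3K27me3, Glra2, a glycine receptor subunit, had 47869 bp under peaks in cKO and 70387 bp in control, more than any autosomal receptor gene in either genotype. Glra4 had 3850 bp in cKO and 5486 bp in control, Gria3 3732 bp in cKO and 4315 bp in control, and Gabra3 none in either. Over the chromosome, H3K27me3 peaks covered 14370 kb in cKO and 15865 kb in control, a ratio of 0.906, against 0.981 over chromosomes 1 to 19. Of 386 genes of chromosome X compared, 296 (76.7%) had less H3K27me3 in cKO, against 53.8% of genes on chromosomes 1 to 19. H3K27ac showed no such gap, at 61.9% against 64%. The sex of the tissue is not given in the labels, and its part in these values was not tested.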
